A study of Mus musculus with 2 samples.

Results

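The centromere-proximal ends of the mouse autosomes were taken as all enrichment peaks with a midpoint below 8 Mb on chromosomes 1 to 19, leaving out chromosome 8. This rule gave 1169 of the 45579 peaks in the shDnmt3L library and 1536 of the 55292 peaks in the shGFP library, or 2705 of 100871 peaks in both lists together. Both libraries were made from genomic DNA of E14 mouse embryonic stem cells, a line of pluripotent cells. One culture was transfected with a short hairpin RNA named for Dnmt3L (shDnmt3L), and the other with a control hairpin named for GFP (shGFP). With 1 library per group, the values below carry no replicate error and no test across samples could be made. Each difference is one between these libraries. The level of Dnmt3L after the knockdown was not analysed here.

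Mouse autosomes are telocentric, so the centromere lies at one tip of each chromosome. It is flanked by long arrays of satellite repeats, which form condensed heterochromatin and are known to carry dense cytosine methylation. The mm9 assembly represents most of these arrays as a gap, and its sequence begins at about 3 Mb, so each proximal end amounts to 5 Mb of sequence next to the pericentromeric repeats. Dnmt3L has no catalytic activity of its own and stimulates the de novo methyltransferases Dnmt3a and Dnmt3b, and Tet enzymes can oxidise the methyl group to a hydroxymethyl group. The labels call the samples MeDIP and the series speaks of methylcytosine, whereas the labelled protocol is a glucosylation-based capture of hydroxymethylcytosine. The peaks are therefore named here only as enrichment peaks. The score of a peak is the authors' own value from the peak caller. It was used to rank peaks within one list and, in an alternative setting, for a minimum of 100 in both lists. Read depth is unknown, and intervals cover counting error alone.

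The proximal ends held fewer peaks than their length would give in both libraries. They made up 3.94% of the sequence of the 18 chromosomes, but 2.89% of the shDnmt3L peaks on them (Wilson 95% interval 2.73 to 3.06%) and 3.11% of the shGFP peaks (2.96 to 3.26%). In shDnmt3L the density was 12.99 peaks per Mb in the proximal ends (exact Poisson 95% interval 12.3 to 13.8) and 17.9 per Mb in the rest of the same chromosomes, a ratio of 0.726 (exact 95% interval 0.684 to 0.769). In shGFP it was 17.1 per Mb in the proximal ends (16.2 to 17.9) and 21.8 per Mb in the rest, a ratio of 0.782 (0.743 to 0.822). The low density was not shown to be particular to these 5 Mb. The next 5 Mb, from 8 to 13 Mb, held 11.2 peaks per Mb in shDnmt3L and 14.5 in shGFP, and against that stretch the proximal ends were denser, by a ratio of 1.16 (1.07 to 1.26) in shDnmt3L and 1.17 (1.09 to 1.27) in shGFP.

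The proximal ends differed widely in density, and so did other stretches of the same length, whose larger number also favours a wider range. Proximal density ran over the 18 chromosomes from 0.6 to 39.8 peaks per Mb in shDnmt3L and from 1.2 to 51.2 in shGFP. Over 430 other stretches of 5 Mb on these chromosomes it ran from 0.8 to 80.2 in shDnmt3L and from 0.4 to 96.4 in shGFP. The mean was 12.99 ± 9.94 peaks per Mb over the 18 proximal stretches and 17.7 ± 14.6 over the others in shDnmt3L, and 17.1 ± 12.3 and 21.7 ± 16.98 in shGFP (SD over stretches of 1 library, not over replicates). The interval of the proximal-to-rest ratio lay below 1 on 12 chromosomes in shDnmt3L and 11 in shGFP, and above 1 on 2 in shDnmt3L and 3 in shGFP. The same count was not made for other stretches of 5 Mb, so these counts were not shown to be particular to proximal ends. Such intervals hold counting error alone and not the spread over stretches. Split into stretches of 5 Mb, the proximal one had the fewest peaks of its chromosome only on chromosome 14, in both lists, and was the richest on none.

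**Figure D1:**
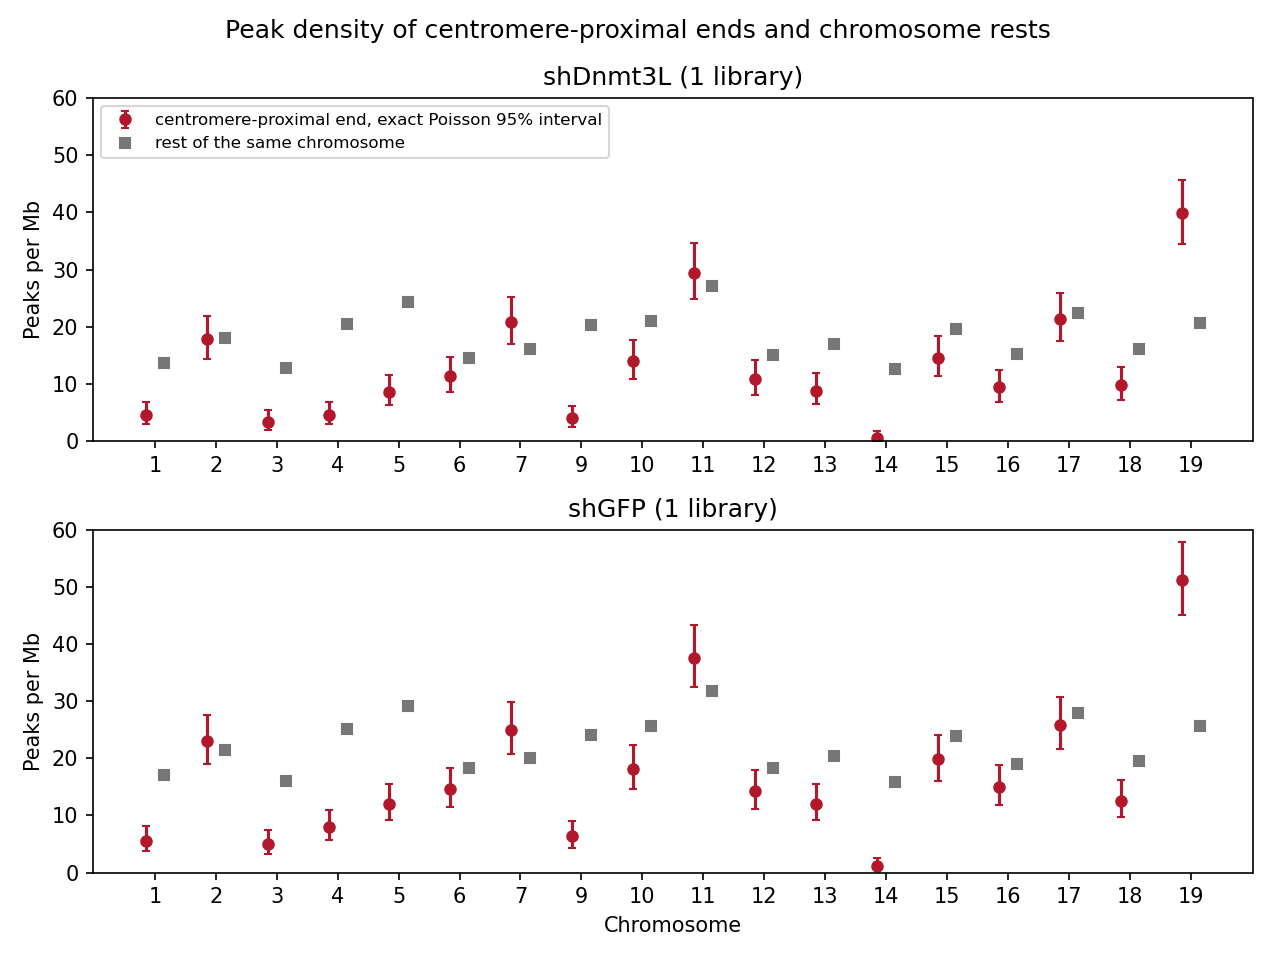
Peaks per Mb in the proximal end (red circles, exact Poisson 95% intervals) and in the rest (grey squares) of each chromosome, shDnmt3L above shGFP. The proximal end of chromosome 19 stands above its rest in both libraries, and that of chromosome 14 is close to 0.

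Chromosome 19 had the densest proximal end. It held 199 peaks in shDnmt3L, or 39.8 per Mb against 20.6 in the rest of the chromosome, a ratio of 1.93 (exact 95% interval 1.65 to 2.25). In shGFP it held 256 peaks, or 51.2 per Mb against 25.7, a ratio of 1.99 (1.74 to 2.28). This one end supplied 17.02% of all proximal shDnmt3L peaks and 16.7% of the shGFP ones. Without chromosome 19, the overall proximal-to-rest ratio was 0.640 in shDnmt3L and 0.693 in shGFP. By ratio to their rest, chromosomes 7 and 11 came next, at 1.29 (1.05 to 1.57) and 1.08 (0.912 to 1.28) in shDnmt3L, and 1.25 (1.03 to 1.49) and 1.18 (1.02 to 1.37) in shGFP. For chromosome 11 the shDnmt3L interval included 1 and the shGFP interval did not.

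Relative to their rest, chromosomes 14, 9 and 3 had the emptiest proximal ends in shGFP. In shDnmt3L chromosome 4, with a ratio of 0.225 (0.142 to 0.338), came before chromosome 3. Chromosome 14 held 3 peaks in shDnmt3L and 6 in shGFP, ratios of 0.0475 (0.00978 to 0.139) and 0.0754 (0.0276 to 0.164). Its longest stretch without a peak ran from 4925340 to 7469324 in shDnmt3L, 2544 kb, and from 6043395 to 7469356 in shGFP, 1426 kb. Chromosome 9 held 20 peaks in shDnmt3L and 32 in shGFP, ratios of 0.197 (0.1198 to 0.304) in shDnmt3L and 0.266 (0.181 to 0.376) in shGFP. Chromosome 3 held 17 peaks in shDnmt3L and 25 in shGFP, ratios of 0.268 (0.156 to 0.430) and 0.311 (0.201 to 0.461). Peaks are called only where reads can be placed. Assembly gaps and repeats within these stretches were not analysed here, so empty sequence and sequence in which no read can be placed cannot be told apart.

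Along the proximal ends, density first went up and then down with distance from the assembled start. In shDnmt3L it was 11.3 peaks per Mb from 3 to 4 Mb, 15.3 from 4 to 5 Mb, 16.2 from 5 to 6 Mb, 14 from 6 to 7 Mb and 8.06 from 7 to 8 Mb. In shGFP the same steps held 15.4, 19.6, 22.4, 17.9 and 10.1 peaks per Mb. The last step was the lowest of the 5 in both libraries, and a second low step, from 11 to 12 Mb, held 6.94 in shDnmt3L and 9.17 in shGFP. Each step had a large spread over chromosomes, with an SD of 7.70 to 15.8 in shDnmt3L and of 9.59 to 21.3 in shGFP. At the boundary itself, the shDnmt3L peaks with the midpoints nearest to 8 Mb were a 1281 bp peak on chromosome 10 that scored 87.6 on the inner side and a 2071 bp peak on chromosome 5 that scored 84.4 on the outer side. In shGFP they were a 1446 bp peak on chromosome 10 with a score of 90.2 inside and a 2064 bp peak on chromosome 12 with a score of 50.9 outside.

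Fewer proximal peaks were called in shDnmt3L than in shGFP on every one of the 18 chromosomes. The same held for the rest on all 18, with ratios of peak numbers from 0.790 to 0.854. The proximal list was 23.9% shorter in shDnmt3L, a ratio of peak numbers of 0.761 (exact 95% interval 0.705 to 0.822). In the rest of the same chromosomes it was 18.05% shorter, a ratio of 0.820 (0.809 to 0.831), and in the next 5 Mb the ratio was 0.771 (0.709 to 0.837), close to the proximal one. The proximal ratio was below that of the rest on 15 of 18 chromosomes. As a share of its own list, the proximal part of shDnmt3L was 0.931 times that of shGFP, and the interval of 0.862 to 1.00495 included 1, so a difference in share was not detectable from these numbers. That interval lay below 1 with lists of equal length, at 0.918 (0.847 to 0.994), and with the limit at 10 or 13 Mb, with chromosome 8 included, with peaks within 500 bp merged, and without chromosome 7 or 17.

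Covered length, unlike in the rest, was slightly lower in shDnmt3L. Proximal peaks covered 3.05 Mb in shDnmt3L and 3.19 Mb in shGFP, a change of −4.58%. In the rest of the chromosomes the values were 105.2 Mb in shDnmt3L and 100.51 Mb in shGFP, a change of 4.69%. Proximal covered length was lower in shDnmt3L on 14 of the 18 chromosomes, with ratios from 0.671 on chromosome 14 to 1.10 on chromosome 1. The next 5 Mb gave nearly the same value as the proximal ends, a change of −4.54%. The direction depended on how weak peaks were treated. With lists of equal length the ratio of covered length was 1.10 in the proximal ends and 1.22 in the rest, and at scores of 100 or more it was 1.02 and 1.12.

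Stretches of 5 Mb were also grouped by the number of peaks they held in both lists together, a grouping chosen after the values were seen. The classes were broad, and in each the proximal stretches held fewer peaks per stretch than the others. Density was thus only roughly matched, and its part in the differences within a class was not tested. Among stretches with under 100 peaks, shDnmt3L had 0.656 times the peak number of shGFP (0.494 to 0.868) in 5 proximal ones and 0.739 times (0.706 to 0.773) in 145 others. With at least 100 but under 200 peaks it was 0.738 (0.651 to 0.837) in 8 proximal stretches and 0.784 (0.760 to 0.808) in 111 others. With 200 or more it was 0.795 (0.715 to 0.882) in 5 proximal stretches and 0.838 (0.825 to 0.852) in 174 others. The proximal value was the lower one in each class, but its interval included the value of the other stretches each time. The ratio of covered length was 0.857 against 0.9503 in the sparsest class, 0.905 against 1.01 in the middle class and 0.997 against 1.06 in the densest.

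**Figure D2:**
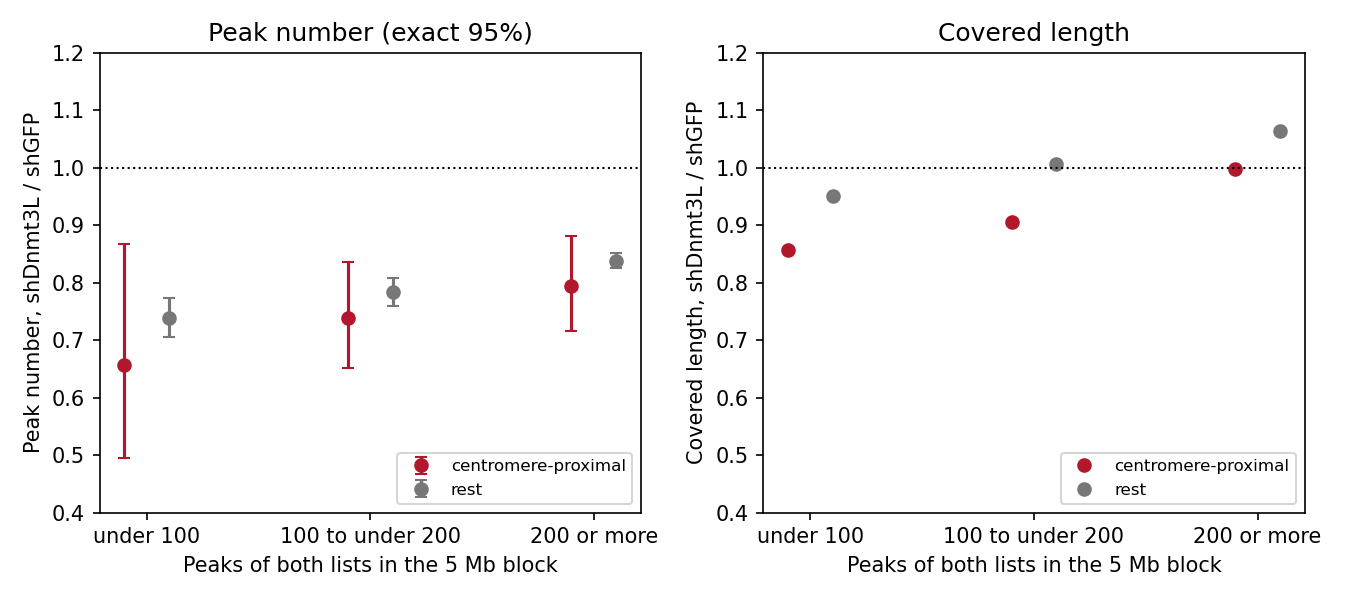
Ratio of peak number (left, exact 95% intervals) and of covered length (right, no interval), shDnmt3L over shGFP, for 5 Mb stretches grouped by their peaks in both lists together. Proximal stretches (red) lie below the others (grey) in each class, and both ratios are higher in denser stretches. Density was not matched within a class, where proximal stretches held fewer peaks per stretch.

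At the scale of 1 Mb, 49 of the 90 proximal windows held at least 20 peaks in both lists together. In none of the 49 did the interval of the ratio of shares leave out 1. The background over all windows of the 18 chromosomes was 0.077%, or 1 of 1298. The highest ratio was 1.33 (exact 95% interval 0.539 to 3.34), on chromosome 18 from 7000001 to 8000000, with 12 shDnmt3L and 11 shGFP peaks. It was followed by the windows chr2:6000001-7000000, chr12:5000001-6000000, chr19:6000001-7000000 and chr15:4000001-5000000, with ratios of 1.16, 1.15, 1.12 and 1.11. The lowest ratio was 0.644 (0.267 to 1.45), on chromosome 5 from 3000001 to 4000000, with 10 shDnmt3L and 19 shGFP peaks. All 10 shDnmt3L peaks had a partner and 9 of the 19 shGFP peaks had none, against a background of 26.6% without one in shGFP. The window was chosen for its low ratio, so this count is not a separate result. The next lowest were chr16:5000001-6000000, chr10:6000001-7000000, chr5:5000001-6000000 and chr15:5000001-6000000, with ratios of 0.734, 0.750, 0.753 and 0.772. The ratio was below 1 in 63.3% of the proximal windows and in 47.5% of the others.

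Proximal peaks were slightly narrower than those of the whole rest and wider than those of the next 5 Mb. They were wider in shDnmt3L than in shGFP, as in the whole list. The median width was 2314 bp in proximal shDnmt3L peaks (order-statistic 95% interval 2281 to 2346) and 2360 bp in the rest (2355 to 2365). In shGFP it was 1928.5 bp in proximal peaks (1893 to 1961) and 1978 bp in the rest (1972 to 1984). The next 5 Mb had medians of 2233 bp (2204 to 2272) in shDnmt3L and 1879.5 bp (1849 to 1910) in shGFP. The proximal median was the lower one on 17 of 18 chromosomes in shDnmt3L and on 12 in shGFP. In shDnmt3L the exception was chromosome 19, whose proximal peaks had a median of 2541 bp against 2358 bp in its rest. Below 2 kb lay 28.3% of proximal shDnmt3L peaks against 23.8% in the rest, and 55.1% of proximal shGFP peaks against 51.6%. In the next 5 Mb these shares were higher still, at 30.95% in shDnmt3L and 59.1% in shGFP.

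Peaks under 1 kb were few in shDnmt3L and made up a larger part of the proximal than of the remaining list in shGFP. In shDnmt3L there were 4, or 0.342% of proximal peaks (Wilson 95% interval 0.133 to 0.876%), against 0.262% in the rest. In shGFP there were 36, or 2.34% (1.70 to 3.23%), against 1.44% in the rest (1.34 to 1.55%), but the next 5 Mb was close, at 2.14%. Of these 36 shGFP peaks, 12 (33.3%) had a shDnmt3L partner, against 42.9% of such peaks in the rest and 32.1% in the next 5 Mb. The 6 proximal shGFP peaks of chromosome 14 were 1211, 631, 633, 933, 542 and 902 bp wide in order of position, and 3 of them had no partner. All 3 shDnmt3L peaks there, of 1243, 658 and 1354 bp, were shared. Of all proximal peaks, whatever their width, 89.4% were shared in shDnmt3L and 69.3% in shGFP.

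**Figure D3:**
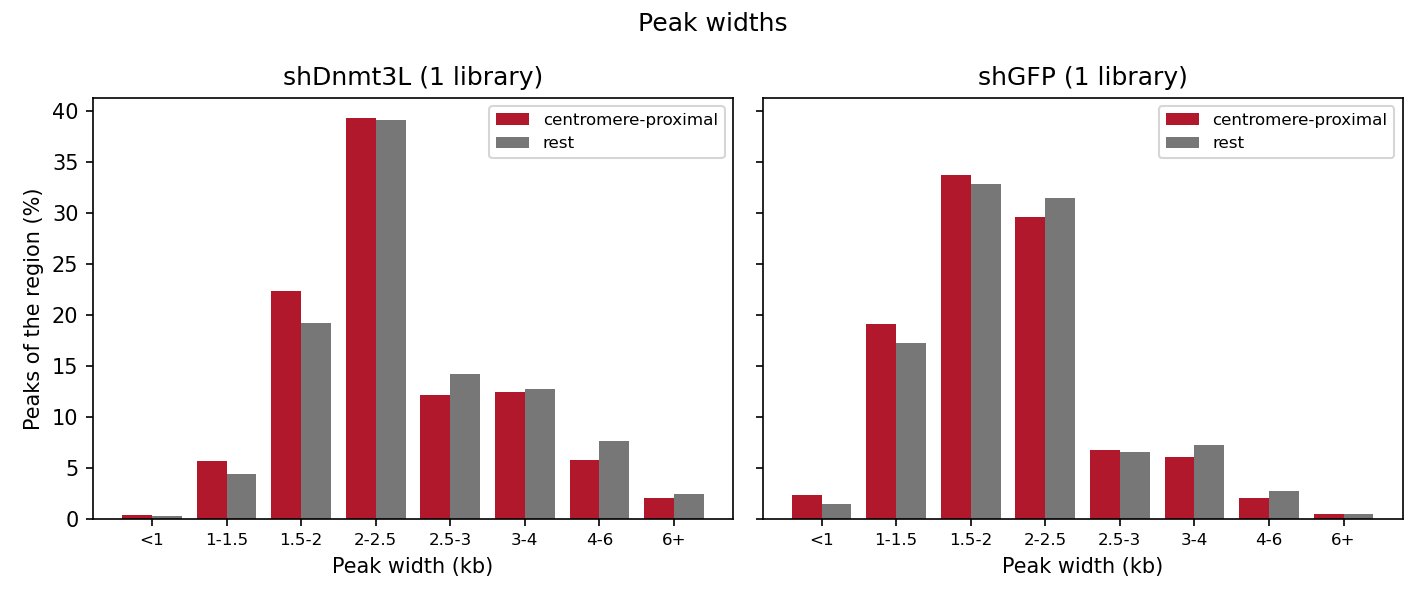
Share of peaks in each width class for proximal ends (red) and the rest of the same chromosomes (grey), shDnmt3L left and shGFP right. The fullest class is 2 to 2.5 kb in shDnmt3L and 1.5 to 2 kb in shGFP, and the proximal bars are the higher ones in the classes below 2 kb.

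Proximal peaks that overlapped one to one gave 1022 pairs. Of these, 80.1% were wider in shDnmt3L (Wilson 95% interval 77.6 to 82.5%), against a background of 81.5% over all such pairs of the 18 chromosomes. The median difference was 109.5 bp (order-statistic 95% interval 92 to 137 bp) in the proximal pairs and 143 bp (139 to 146 bp) in the pairs of the rest. Both libraries gave the same width in 6.07% of the proximal pairs and 3.81% of the others. Widths at least 1.5 times those of shGFP were found in 8.81% of the proximal pairs (7.22 to 10.7%) and 8.55% of the others. The largest gain, a pair picked after the values were seen, lay on chromosome 19. There a shDnmt3L peak from 4709649 to 4716182 was 6534 bp wide and the shGFP peak under it 1665 bp. The largest loss lay on chromosome 17, where the shDnmt3L peak from 5319803 to 5321367 was 1565 bp wide and its shGFP partner 3547 bp. Spearman rho of the paired scores, across peaks, was 0.810 over the 1022 proximal pairs and 0.832 over the 32699 others. Paired scores come from peaks that overlap, with the same bounds in both lists in 62 of the proximal pairs. No test was made.

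The share of proximal peaks found in both lists differed from that of the rest in opposite directions in the 2 libraries. Both shares count the same overlaps, 1045 proximal peaks in shDnmt3L and 1064 in shGFP, over lists of unlike length. The 2 differences are therefore tied to the peak numbers and are not independent. In shDnmt3L, 89.4% of proximal peaks (Wilson 95% interval 87.5 to 91.0%) overlapped a shGFP peak, against 87.1% in the rest (86.8 to 87.4%), a difference of 2.28 percentage points (95% interval 0.357 to 3.95). In shGFP, 69.3% of proximal peaks (66.9 to 71.5%) overlapped a shDnmt3L peak, against 73.6% in the rest (73.2 to 74.0%), a difference of −4.31 points (−6.70 to −2.02). Peaks without a partner thus numbered 124 in shDnmt3L and 472 in shGFP, and the background share without one on the 18 chromosomes was 12.8% in shDnmt3L and 26.6% in shGFP. The proximal share was above that of the rest on 12 of 18 chromosomes in shDnmt3L and below it on 15 of 18 in shGFP. Set against the next 5 Mb instead, the differences were 1.69 points (−0.980 to 4.41) in shDnmt3L and 0.387 points (−3.01 to 3.80) in shGFP, so neither interval excluded 0 and the shGFP difference changed sign. The shDnmt3L interval also included 0 without chromosome 2, 7, 13 or 19 (differences of 1.75 to 1.91 points), with the limit at 5 Mb (2.65 points) and at scores of 100 or more (0.869 points).

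Sharing depended on score in shGFP far more than in shDnmt3L, within the proximal ends as elsewhere. In the lowest quartile of scores, 26.6% of proximal shGFP peaks had a partner (Wilson 95% interval 22.5 to 31.1%) against 31.8% in the rest (30.9 to 32.6%), and in the second 63.8% (59.1 to 68.3%) against 68.4% (67.6 to 69.2%). In the third it was 91.8% (88.4 to 94.2%) against 94.2% (93.7 to 94.6%), and in the highest 99.7% against 99.9%. In shDnmt3L the proximal shares were 83.1, 92.5, 88.1 and 94.4% from the lowest to the highest quartile, against 78.7, 88.1, 91.2 and 90.5% in the rest. The proximal share was the higher one in all but the third quartile. Wilson 95% intervals overlapped in the lowest quartile (78.6 to 86.8% against 77.8 to 79.5%) and in the third (83.7 to 91.4% against 90.6 to 91.8%). In the second and the highest quartile they lay narrowly apart. Unshared proximal shGFP peaks lay at a median of 15587.5 bp from the nearest shDnmt3L peak, against 10528.5 bp in the rest. Unshared proximal shDnmt3L peaks lay at 8605.5 bp from the nearest shGFP peak, against 7806.5 bp. Such distances also depend on the density of the other list, which was lower in the proximal ends than in the rest. That density was 12.99 against 17.9 peaks per Mb in shDnmt3L and 17.1 against 21.8 in shGFP. Its part in these distances was not tested.

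**Figure D4:**
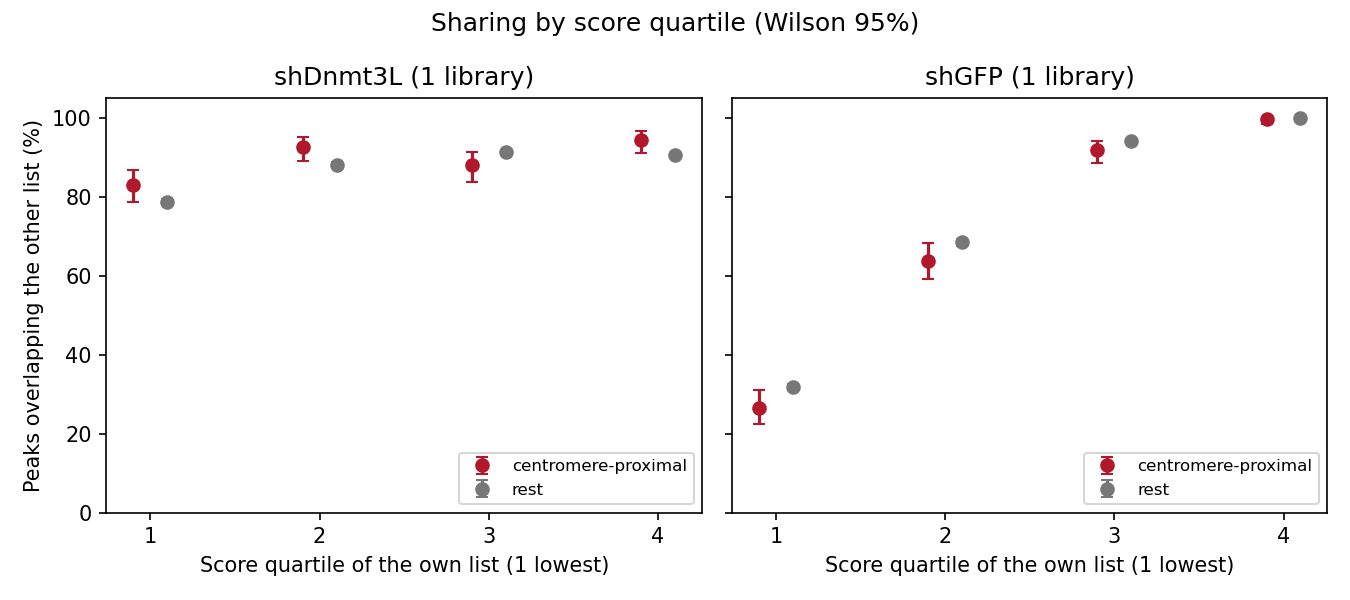
Share of peaks that overlap the other list by score quartile of the own list, proximal (red) and rest (grey), with Wilson 95% intervals. The proximal shGFP shares go from 26.6% in the lowest to 99.7% in the highest quartile, while the shDnmt3L shares stay between 83.1 and 94.4%.

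The proximal peaks of highest score lay at the edge of the assembled sequence of chromosomes 9 and 11 in both libraries. In each library 3 proximal peaks tied at a score of 3100, a value held by 19 shDnmt3L and 16 shGFP peaks of the whole lists, whose maxima lay elsewhere. The first was a 74393 bp shDnmt3L peak on chromosome 11 from 3026198 to 3100590, matched by a 74190 bp shGFP peak from 3026531 to 3100720. The second was an 18366 bp shDnmt3L peak on chromosome 9 from 3014828 to 3033193, against 18302 bp in shGFP from 3014860 to 3033161. The third began at 2999558 on chromosome 9 in shDnmt3L, was 7808 bp wide and covered a pair of shGFP peaks of 3864 and 3358 bp, the first of which also scored 3100.

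The fourth and the fifth of the proximal peaks by score lay at matching positions in both lists. On chromosome 9 from 3034174 to 3039405, a peak with identical bounds in both libraries, 5232 bp wide, scored 1579.2 in shDnmt3L and 1969.69 in shGFP. On chromosome 11 a peak from 3000055 to 3006461 scored 1453.54 in shDnmt3L, and its shGFP partner from 3000087 to 3006436 scored 1696.09. Scores of the 2 lists are not on a common scale, so these pairs show ranks only. Peaks that began in the first 100 kb summed to 31.4 kb in shDnmt3L and 30.8 kb in shGFP on chromosome 9, and to 82.4 kb in shDnmt3L and 84.995 kb in shGFP on chromosome 11. Whether these intervals hold satellite or other repeats was not analysed here.

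Peaks close to the edge were not found on all chromosomes. A first peak within 100 kb of 3 Mb was present on 8 of 18 chromosomes in shDnmt3L and 10 in shGFP. The median first peak began 112 kb beyond 3 Mb in shDnmt3L and 90.4 kb beyond it in shGFP. The farthest began at 3804972 on chromosome 16 in shDnmt3L and at 3650847 on chromosome 14 in shGFP. In this first 100 kb there were 14 shDnmt3L peaks, all shared, and 25 shGFP peaks, 16 of them shared. Over all proximal peaks the shared part was 89.4% in shDnmt3L and 69.3% in shGFP, so these small counts show no sharing particular to the edge. The few peaks of the first 100 kb covered 4.41% of the proximal covered length in shDnmt3L and 4.50% in shGFP. Besides chromosomes 9 and 11, the first peaks of highest score within 100 kb lay on chromosome 4, from 3016239 to 3018658 in shDnmt3L and from 3016245 to 3018658 in shGFP, and on chromosome 18, from 3003802 to 3009762 in shDnmt3L and from 3003798 to 3006536 in shGFP.

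Proximal scores had slightly lower medians than those of the rest, and a larger share of proximal peaks lay in the highest 1%. The median score was 93.7 in proximal shDnmt3L peaks and 97.2 in the rest, and 90.3 in proximal shGFP peaks and 94.9 in the rest. The highest quartile held 24.6% of proximal shDnmt3L peaks against 25.01% in the rest, and 24.3% of proximal shGFP peaks against 25.02%. The highest decile of the whole list held 10.2% of proximal shDnmt3L peaks (Wilson 95% interval 8.57 to 12.0%), against a background of 9.03% on the 18 chromosomes, and 10.2% of proximal shGFP peaks (8.74 to 11.8%), against 9.14%. Both intervals included the background. The highest 1% held 16 proximal shDnmt3L peaks, or 1.37% (0.844 to 2.21%) against 0.799% in the rest (0.716 to 0.893%). It held 25 proximal shGFP peaks, or 1.63% (1.10 to 2.39%) against 0.812% in the rest (0.735 to 0.896%). The intervals were apart in shGFP and overlapped in shDnmt3L. In the next 5 Mb the highest 1% held 0.298% of shDnmt3L and 0.535% of shGFP peaks. Of the proximal ones, 5 in shDnmt3L and 6 in shGFP lay in the first 100 kb. Chromosome 6 held the most of any proximal end, with 4 in shDnmt3L and 6 in shGFP.

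Broad peaks of 10 kb or more numbered 4 in the proximal shDnmt3L list (exact Poisson 95% interval 1.09 to 10.2) and 2 in the proximal shGFP list (0.242 to 7.22). That is 0.342% of proximal shDnmt3L peaks against a background of 0.45%, and 0.13% of proximal shGFP peaks against 0.0263%. The 2 shGFP peaks were those at the edge of chromosomes 9 and 11, and leaving out either chromosome left 1. In shDnmt3L the same 2 were joined by a pair of peaks with no shGFP overlap, as was the case for 100 of the 178 broad shDnmt3L peaks in the rest. These lay on chromosome 6 from 6821674 to 6834327, 12654 bp wide with a score of 662.9, and on chromosome 15 from 7757539 to 7767668, 10130 bp wide with a score of 892.1. The nearest shGFP peaks were 41045 bp and 16426 bp away. At 5 kb or more the shDnmt3L list held 42 proximal peaks, or 3.59% (2.67 to 4.82%) against a background of 4.54%, and the shGFP list 13, or 0.846% (0.495 to 1.44%) against 1.06%. Of the 42, 14 lay on chromosome 19 and 10 on chromosome 11.

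The 5 proximal shDnmt3L peaks of highest score with no partner were all over 4 kb wide. After the broad pair on chromosomes 15 and 6 came chr19:5555370-5562770, which was 7401 bp wide and scored 418.38. The fourth, chr11:3895121-3900563, was 5443 bp wide and scored 354.24. The fifth, chr15:5190636-5195001, was 4366 bp wide and scored 352.4. Of the 119 proximal shDnmt3L peaks in the highest score decile, 7 had no partner and 94.1% were shared, against 378 without a partner and 89.3% shared among 3535 in the rest.

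In shGFP every peak of the highest score decile was shared, in the proximal ends and in the rest of the 18 chromosomes alike. The strongest unshared proximal peaks had low widths, 3 of the 5 under 1 kb. The first, chr14:6042853-6043394, was 542 bp wide and scored 278.87, and its nearest shDnmt3L peak was 1117513 bp away. The second, chr14:4398375-4399005, was 631 bp wide and scored 145.5. The third, chr7:4589780-4590396, was 617 bp wide and scored 130.78. The fourth, chr4:5600759-5601925, was 1167 bp wide and scored 120.59. The fifth, chr19:5378968-5380708, was 1741 bp wide and scored 118.56, with a shDnmt3L peak 386 bp away.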

How the data were processed

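The deposited files hold 1 list of peaks per library, with a position, a name and a score for each. The deposited score comes from the authors' peak caller, and its scale is not stated. Per the submitters' processing notes, the build was mm9 and the tools were MACS 1.4.1, Bowtie 0.12.7 and CASAVA 1.8, with no roles. The sources used here do not give the read depth, the handling of duplicates or the use of an input control. Depth changes how many weak peaks are called and how wide they are.

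Lists were compared in Python 3.11.15 with numpy 2.4.6, pandas 2.3.3 and scipy 1.17.1. Proximal length was counted from 3 Mb and chromosome length to the last peak of either list. Peaks were shared at 1 bp of overlap. Coordinates count the first base as 1. The overlap and interval code was tested on simulated data. The interval test used independent counts, so it does not show how the intervals hold for neighbouring peaks. Named regions followed a rule of 5 peaks or windows at each end and 3 chromosomes at each end, with ties in score ordered by width. Pairs of largest width change, edge peaks, peaks below 1 kb and density classes were added after values were seen. The members and lists were chosen with earlier results of these data known. Gene annotation of this build was not used, so no peak was assigned to a gene. Peaks are treated as independent in the intervals, which neighbouring peaks are not. Alternatives covered the boundary, score minimum, list length, chromosomes, merging, width and overlap.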

Additional observations from a re-analysis of the deposited data

Results flagged for a closer look

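The share of peaks found in both lists differed from the rest of the chromosomes in opposite directions in the libraries, which drew attention to it. It was 2.28 percentage points higher in the proximal ends than in the rest in shDnmt3L, and −4.31 points, that is lower, in shGFP. With 1 library per group the difference between the libraries was not tested. Each share also moves with the relative length of the lists, and shDnmt3L had 0.761 times the peak number of shGFP in the proximal ends and 0.820 times in the rest. With lists of equal length the shares were 84.3% against 81.9% in shDnmt3L and 78.4% against 83.7% in shGFP, and the peak number ratio was 0.915 in the proximal ends and 0.999 in the rest. The part of peak number in this pattern was not tested further.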

How the results depend on the processing

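Of 144 alternative values, beside 252 with 1 chromosome left out, 107 stayed within the counting interval or, for counts, within 1.5 times, though 1 of them, the ratio of covered length at a minimum score of 100, changed sides of 1 (1.02). For the ratio of covered length, the interval was that of the peak number ratio, rescaled. It leaves out the spread of peak widths. The cause of the other shifts was not tested. Another 3 reversed, all with the next 5 Mb as comparison: the density ratio was 1.16 in shDnmt3L and 1.17 in shGFP, and the difference in sharing 0.387 points in shGFP, and in shDnmt3L that difference, 1.69 points, lost its call. It was also lost with the limit at 5 Mb (2.65) and at a minimum score of 100 (0.869). The ratio of shares gained a call at 10 Mb (0.931), 13 Mb (0.936), equal length (0.918), chromosome 8 included (0.927) and merged peaks (0.923). The density ratios in shDnmt3L and shGFP were 0.804 and 0.881 at 6 Mb, 0.665 and 0.714 at 13 Mb, and 0.680 and 0.735 with chromosome 8. In shGFP the ratio was 0.728 at a minimum score of 100. Median width was 2271 bp at 5 Mb and 2279 bp at 13 Mb in shDnmt3L, 2602 bp and 2204.5 bp (shDnmt3L and shGFP) at the higher score, and 2000.5 bp in shGFP with equal length. The shared share was 84.5% in shDnmt3L at the higher score, 84.3% in shDnmt3L and 78.4% in shGFP with equal length, and 85.6% in shDnmt3L and 65.2% in shGFP at an overlap of 50%. The share in the highest decile was 12.6% in shGFP at the higher score. The ratio of covered length was 1.10 with equal length. Broad shDnmt3L peaks numbered 2 at 5 Mb and at 6 Mb and 7 when merged. With a minimum width of 5 kb there were 42 in shDnmt3L and 13 in shGFP, and with 20 kb 1 in each.

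With each chromosome left out in turn, the density ratio ran from 0.640 to 0.762 in shDnmt3L and from 0.693 to 0.815 in shGFP, the ratio of shares from 0.922 to 0.938, and that of covered length from 0.943 to 0.963. In shDnmt3L median width ran from 2277.5 to 2332 bp, the shared share from 88.9 to 89.96%, its difference from the rest from 1.75 to 2.81 points, the share in the highest decile from 9.07 to 10.7% and broad peaks from 3 to 4. In shGFP these ran from 1905 to 1936.5 bp, 68.5 to 69.9%, −5.18 to −3.60 points, 9.53 to 10.5% and 1 to 2. Equal weights for chromosomes, added later, gave density ratios of 0.715 in shDnmt3L and 0.770 in shGFP. No paired analysis was possible because the groups hold 1 library each. Read depth affects how many weak peaks are called, and it is unknown for these libraries.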
